A study of Homo sapiens with 8 samples.

Results

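The ATP-binding cassette (ABC) transporter genes were taken as every gene whose symbol is ABCA, ABCB, ABCC, ABCD, ABCE, ABCF or ABCG followed by a number alone. Symbols with a pseudogene or antisense ending after the number were left out. The deposited table held 54 such rows for 46 symbols, and the 8 further rows of 3 of these symbols were at 0 reads in every library. Of the 46 genes, 34 reached 10 normalized reads in at least 4 of the 8 libraries and were tested, among 19559 genes tested of 63677 rows. They were 9 of 12 genes of subfamily A, 6 of 9 of B, 10 of 12 of C, 3 of 4 of D, the only gene of E, all 3 of F and 2 of 5 of G.

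The RNA came from LY2, a breast cancer line derived from MCF-7 that is resistant to endocrine therapy. One group stably carried short hairpin RNA against NCOA1 (shSRC1, 4 libraries) and the other a non-targeting short hairpin RNA (shNT, 4 libraries). All cells of both groups grew under puromycin at 500 ng/mL, which retains the hairpin, went without steroids for 72 h and were then treated for 8 h with 4-hydroxytamoxifen, an active metabolite of tamoxifen. No group without tamoxifen and no parental cells entered the comparison, and nothing says that the libraries of a group came from separate cultures, so p-values reflect spread between libraries alone, possibly of technical origin.

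ABC transporters use ATP bound at paired nucleotide-binding domains to move a substrate across a membrane, most often out of the cytosol. Subfamily A moves lipids, B and C hold drug, bile salt and conjugate exporters besides organelle transporters, D imports fatty acyl groups into peroxisomes, and G moves sterols and drugs. ABCE1 and the F proteins have the ATPase domains without a membrane part and act on ribosomes. In breast cancer the family is known mainly for drug efflux, and several members are targets of nuclear receptors, the factors that SRC-1, the product of NCOA1, coactivates.

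NCOA1 averaged 2036 ± 151 normalized reads in shSRC1 and 4396 ± 137 in shNT (SD, n = 4 each), and its log2 fold change was -1.11 ± 0.08 (SE). The libraries held 58459196 to 67022036 reads assigned to genes, except shSRC1 replicate 2 with 33771775. Of 8 luminal breast markers all were detected, and their summed level, carried mostly by KRT8, KRT18 and KRT19, was 513845 to 583254 normalized reads in shSRC1 and 340043 to 416533 in shNT. These 3 keratins were higher in shSRC1 and the other 5 markers were not called, with log2 fold changes of -0.13 for ESR1, -0.16 for EPCAM, -0.07 for FOXA1, 0.11 for CDH1 and 0.19 for GATA3. The part of the keratin difference in the results below was not tested. Summed fibroblast markers were at 1452 to 1978 in shSRC1 and 1632 to 2184 in shNT, carried mostly by COL1A1 (means 1552 and 1810). Leukocyte markers were at 10.0 to 26.6 in shSRC1 and 19.5 to 35.3 in shNT. Endothelial markers were at 222 to 289 and 231 to 277, carried mostly by VWF (means 237 and 248), with PECAM1 at 0 reads.

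Of the 34 tested ABC transporter genes, 8 fell and 2 rose in shSRC1 cells. Among the genes that fell were ABCC2, ABCC3, ABCB6, ABCC6, ABCB4, ABCA7 and ABCB9, and those that rose were ABCF1 and ABCA12. ABCC2 and ABCC3, exporters of glucuronide and other conjugates, changed most and were the only 2 called members past a 2-fold change. No call was made for the drug pumps ABCG2, ABCC1, ABCC4 and ABCC5, for the cholesterol exporters ABCA1 and ABCG1, or for the mitochondrial transporters ABCB8 and ABCB10. In bulk RNA, fewer cells of a type and less RNA per cell cannot be told apart.

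The threshold was an adjusted p of 0.05, from limma on log2(normalized reads + 1) with Benjamini-Hochberg adjustment over all genes tested. The share of members called was 29.4% (10 of 34), beside 23.2% of all genes tested. Members called lower made up 23.5%, beside 11.2% of all genes, and members called higher 5.88%, beside 12.0%. Without shSRC1 replicate 2, 3 or 4, or without shNT replicate 1, 7 members were lower. The share of all genes called lower was then 7.43%, 9.27%, 9.33% and 8.67%, in that order. The number of members higher was 1 without shNT replicate 1, shSRC1 replicate 3 or shSRC1 replicate 4, and 4 without shNT replicate 3. The share of all genes called higher at these settings was 9.05%, 9.07%, 8.81% and 11.0%, in that order. Called changes of at least 2-fold were seen in 2 of 34 members and in 3.54% of all genes. The 2 groups of libraries did not overlap for 12 members, or 35.3%, beside 29.0% of all genes. The median log2 fold change was -0.045 over the members and -0.0025 over all genes, and the median absolute change was 0.239 over the members and 0.237 over all genes. For each of the 10 called members the exact two-sided permutation test over the 8 libraries gave p = 0.0286, the smallest that 4 against 4 allows. That value follows whenever the groups do not overlap, and the uncalled ABCD4 and ABCF2 had it too. It therefore adds no support to the calls.

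**Figure D1:**
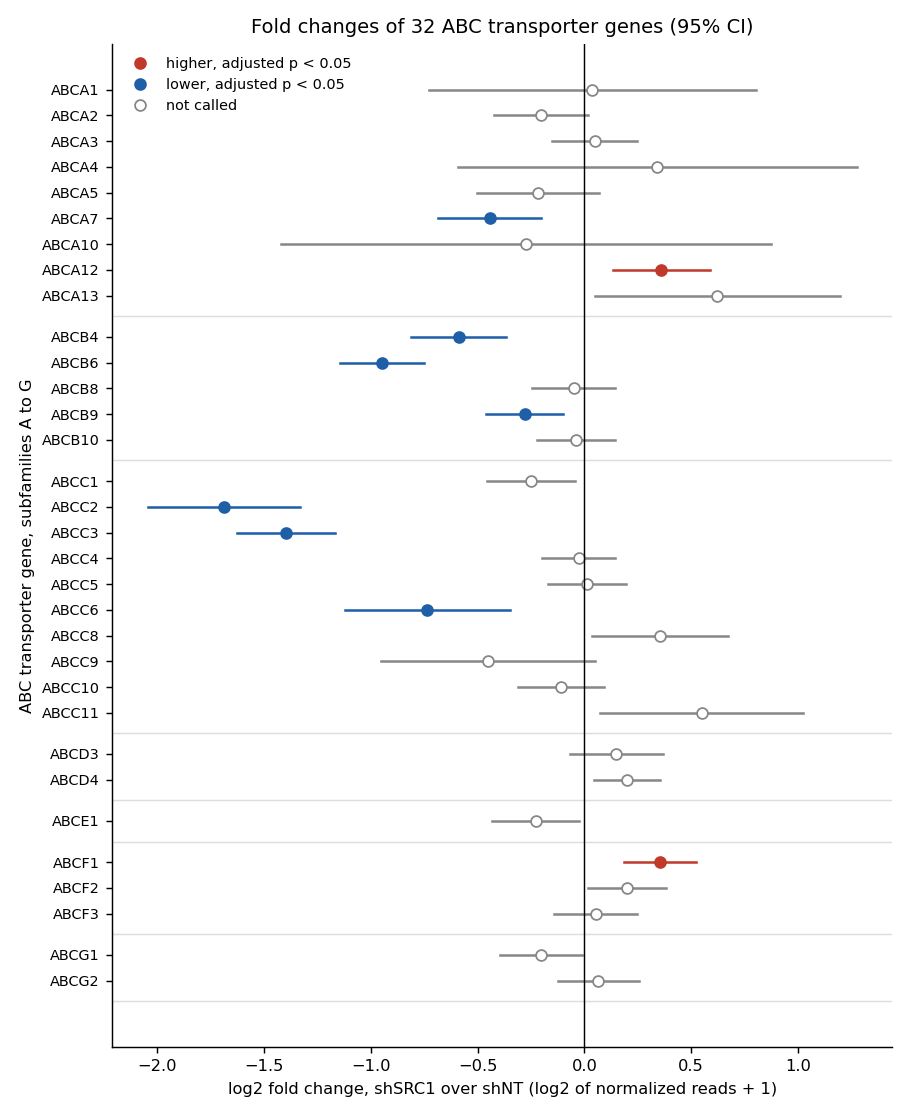
Log2 fold changes, shSRC1 over shNT, of 32 tested ABC transporter genes by subfamily, as points with 95% confidence intervals from limma. Filled blue points fell (7 genes), filled red points rose (2 genes) and open points were not called (23 genes). ABCC2 at -1.69 and ABCC3 at -1.40 lie farthest from 0 on the lower side.

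Promoter windows of 3 called members, each from 250 bases before to 50 bases after the annotated start, are given to show the DNA beside the genes of the largest fall, of the largest fall outside subfamily C and of the rise with the smallest p. They come from RefSeq on GRCh38.p14 and lie at chr10:99782390-99782689 on the plus strand for ABCC2, chr2:219218909-219219208 on the minus strand for ABCB6 and chr6:30571192-30571491 on the plus strand for ABCF1. Capitals mark matches to the antioxidant response element TGACNNNGC, the site of NRF2, or to the AP-1 site TGANTCA, searched on both strands.
ABCC2: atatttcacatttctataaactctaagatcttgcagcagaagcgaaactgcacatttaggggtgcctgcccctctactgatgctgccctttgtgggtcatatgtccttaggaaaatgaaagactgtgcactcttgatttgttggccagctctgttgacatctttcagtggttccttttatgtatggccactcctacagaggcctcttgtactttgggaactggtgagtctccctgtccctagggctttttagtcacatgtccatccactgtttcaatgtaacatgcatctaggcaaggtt
ABCB6: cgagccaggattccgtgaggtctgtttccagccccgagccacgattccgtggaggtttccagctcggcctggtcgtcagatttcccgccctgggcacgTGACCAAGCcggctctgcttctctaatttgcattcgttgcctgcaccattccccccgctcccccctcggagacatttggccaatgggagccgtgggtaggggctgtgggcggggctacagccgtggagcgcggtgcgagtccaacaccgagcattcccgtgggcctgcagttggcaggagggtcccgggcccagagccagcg
ABCF1: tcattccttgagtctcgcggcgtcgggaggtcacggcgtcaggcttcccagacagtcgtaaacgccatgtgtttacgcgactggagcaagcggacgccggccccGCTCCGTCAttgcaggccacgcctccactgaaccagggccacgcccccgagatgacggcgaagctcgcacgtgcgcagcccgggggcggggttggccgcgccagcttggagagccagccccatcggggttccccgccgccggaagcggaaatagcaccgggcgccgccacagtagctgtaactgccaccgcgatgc
The ABCC2 window held neither motif. The ABCB6 window held 1 antioxidant response element match at position -152 from the start, and the ABCF1 window 1 on the strand opposite to the one printed, at position -146. Positions count to the first base of the match as printed. The shorter estrogen receptor half-site GGTCA, not marked, was found at -156 in ABCC2, at -222 in ABCF1 and at -152 in ABCB6, there on the strand opposite to the one printed and overlapping the antioxidant response element match.

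Of the 34 tested members 26 had such a window, 39 windows in all since some genes have several starts, and 7 of the 10 called members were among them. The antioxidant response element was found in 11 of the 39 member windows (28.2%) and in 13.3% of all 35116 windows of this length. The AP-1 site was found in 3 of 39 (7.69%) and 7.71%, and the estrogen receptor half-site in 15 of 39 (38.5%) and 37.4%. Of the 26 members with a window, called or not, 11 had an antioxidant response element match and 12 a half-site match. Among the 7 called ones, ABCB6, ABCB9 and ABCF1 had the former, and ABCA12, ABCB6, ABCB9, ABCC2 and ABCF1 the latter. These are matches of letters in a window and describe no binding.

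Subfamily C holds the multidrug resistance proteins, and 3 of its 10 tested members fell while none rose. Over all genes tested, 11.2% fell and 12.0% rose, and whether so small a subfamily differs from that was not tested. ABCC2 (MRP2), which exports bilirubin glucuronides and glutathione conjugates across apical membranes, had 67.4, 47.2, 68.2 and 67.8 normalized reads in shSRC1, against 200.4, 190, 233 and 187 in shNT. Every shSRC1 library lay far below every shNT library, and shSRC1 replicate 2, the shallowest, was the lowest of all. Its log2 fold change was -1.69 ± 0.17 (SE), with a 95% interval of -2.04 to -1.33 and a limma adjusted p of 7.31e-06.

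ABCC3 (MRP3), which exports glucuronides and bile salts across basolateral membranes, had 5446, 4265, 4726 and 4186 normalized reads in shSRC1, against 13328, 11145, 13949 and 10709 in shNT. Even the highest shSRC1 library, replicate 1, lay far below the lowest shNT library, replicate 4. The log2 fold change was -1.40 ± 0.11 (SE, 95% interval -1.63 to -1.17), and the limma adjusted p was 5.52e-07.

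ABCC6, known for the export of ATP from liver cells and for its mutation in pseudoxanthoma elasticum, had 90.2, 147, 105 and 144 normalized reads in shSRC1, against 171, 199.9, 249 and 185 in shNT. The groups did not overlap, although shSRC1 replicates 2 and 4 came near shNT replicate 1. Its log2 fold change was -0.74 ± 0.18 (SE), with a limma adjusted p of 0.0100. Its value is uncertain, because near-identical pseudogenes share its sequence. ABCC6P1 held 73 reads over the shSRC1 libraries and 106 over the shNT libraries, and ABCC6P2 held 55 and 62.

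Of the drug efflux genes ABCC1 to ABCC5, ABCC10, ABCC11 and ABCG2, only ABCC2 and ABCC3 were called at the settings used throughout. The share called over all genes tested was 23.2%. ABCG2 (BCRP), which exports mitoxantrone and topotecan, had 1737, 1970, 1791 and 2024 normalized reads in shSRC1, against 1787, 2036, 1694 and 1679 in shNT, and the groups overlapped. Its log2 fold change was 0.07, with a 95% interval of -0.13 to 0.26 and a limma adjusted p of 0.620. ABCC1 (MRP1), an exporter of glutathione conjugates and anthracyclines, averaged 7853 ± 755 in shSRC1 and 9348 ± 994 in shNT (SD, n = 4 each), with a log2 fold change of -0.25 and a limma adjusted p of 0.0713. It passed the threshold without shSRC1 replicate 1 (limma adjusted p = 0.0378) or shNT replicate 4 (0.0492), with the correction for GC content and length (0.0156), and with DESeq2 (adjusted p = 0.0429).

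Among the other pumps, ABCC4 (MRP4), which exports cyclic nucleotides, had a log2 fold change of -0.03 (limma adjusted p = 0.838). ABCC5 (MRP5), also an exporter of cyclic nucleotides, had 0.01 (limma adjusted p = 0.923), and ABCC10 (MRP7), an exporter of taxanes, -0.11 (limma adjusted p = 0.414). ABCC11 (MRP8), the gene of the earwax type, had 79.7, 119, 77.2 and 131 normalized reads in shSRC1, against 67.7, 48.9, 81.7 and 76.3 in shNT. Replicates 2 and 4 of shSRC1 were high and replicates 1 and 3 overlapped shNT, with a log2 fold change of 0.55 and a limma adjusted p of 0.0869. ABCB1 (P-glycoprotein) was under the minimum, with 3 reads over the 4 shSRC1 libraries and 2 over the 4 shNT libraries.

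The make-up of the efflux group was then compared. Per kilobase of transcript, 8 drug efflux genes (ABCC1 to ABCC5, ABCC10, ABCC11 and ABCG2) summed to 5859 ± 403 normalized reads in shSRC1 and 7443 ± 634 in shNT (SD, n = 4 each). ABCC3 held 13.9 ± 0.78% of that sum in shSRC1 and 28.8 ± 1.31% in shNT. ABCC5 held 44.5 ± 0.93% in shSRC1 and 34.7 ± 0.60% in shNT, while its own level was not called. ABCC2 held 0.18 ± 0.03% in shSRC1 and 0.47 ± 0.02% in shNT. ABCG2 held 7.21 ± 0.96% in shSRC1 and 5.44 ± 0.78% in shNT.

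**Figure D2:**
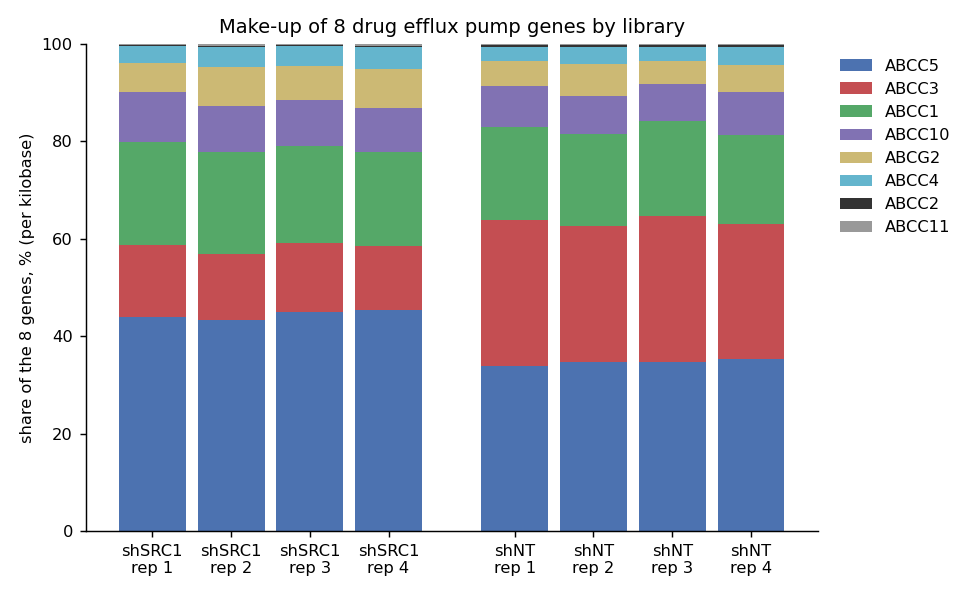
Share of each of 8 drug efflux genes in their summed level per kilobase of transcript, in percent, as stacked bars for the 4 shSRC1 libraries and then the 4 shNT libraries. ABCC3 takes 13.0 to 14.8% in the shSRC1 libraries and 27.5 to 30.0% in the shNT libraries.

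The last genes of subfamily C, ABCC8 (SUR1) and ABCC9 (SUR2), encode regulatory subunits of ATP-sensitive potassium channels and are not pumps. ABCC9 had 2855, 3144, 3473 and 3126 normalized reads in shSRC1, against 4105, 3008, 6933 and 3996 in shNT. Replicate 3 of shNT was far above the other 7 libraries and replicate 2 lay within the shSRC1 range, with a log2 fold change of -0.45 and a limma adjusted p of 0.168. Without shNT replicate 3 the log2 fold change was -0.22 (limma adjusted p = 0.146), and without shNT replicate 2 it was -0.62 (limma adjusted p = 0.0227). ABCC8 averaged 276 ± 51.8 in shSRC1 and 214 ± 30.4 in shNT (SD, n = 4 each), with a log2 fold change of 0.35 and a limma adjusted p of 0.0994. Without shSRC1 replicate 1, its highest library, the log2 fold change was 0.23 (limma adjusted p = 0.265), and without shNT replicate 3 it was 0.44 (limma adjusted p = 0.0419). Of the pore subunits that pair with them, KCNJ8 rose to 91.8 ± 13.4 normalized reads in shSRC1, against 3.63 ± 1.44 in shNT. Its shNT values, 1.86 to 5.38, were all under the minimum, so KCNJ8 was tested on the strength of the shSRC1 libraries alone. Few reads stand behind the shNT values, and the size of the rise is uncertain. The other pore subunit, KCNJ11, had a log2 fold change of 0.08 (limma adjusted p = 0.589).

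In subfamily B, 3 of 6 tested genes fell and none rose, beside 11.2% and 12.0% of all genes tested. A difference from those shares was not tested in so few genes. ABCB6, a porphyrin transporter of organelle and plasma membranes that also carries the Langereis blood group, had 798, 656, 742 and 697 normalized reads in shSRC1, against 1498, 1326, 1451 and 1302 in shNT. The spread within each group was small beside the gap between the groups. Its log2 fold change was -0.95 ± 0.09 (SE, 95% interval -1.14 to -0.75), with a limma adjusted p of 6.42e-06. The GRCh38 annotation places another gene on the same strand over 54.7% of its exon bases, and that gene has no row in the table.

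ABCB4, the floppase that brings phosphatidylcholine into bile, had 264, 245, 289.9 and 260.3 normalized reads in shSRC1, against 403, 404, 388 and 397 in shNT. The shNT libraries were close to each other, and all shSRC1 libraries were below them. On the log2 scale the fold change was -0.59 ± 0.10 (SE), with a limma adjusted p of 0.00132. ABCB9, a lysosomal peptide transporter related to TAP, had 1380, 1174, 1180 and 1163 in shSRC1, against 1480, 1444, 1462 and 1541 in shNT. Replicate 1 of shSRC1 stood apart near the shNT libraries.

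The ABCB9 log2 fold change was -0.28 ± 0.08 (SE), with a limma adjusted p of 0.0286. The call was lost without shNT replicate 1 (limma adjusted p = 0.0645) or 4 (0.0792), without shSRC1 replicate 2 (0.0807), 3 (0.0785) or 4 (0.0722), and with no filter on low values (0.0860). Its exons overlap on the opposite strand with OGFOD2, ARL6IP4 and the transcript AC026362.1, over 12.5%, 12.0% and 20.7% of its exon bases, and the kit is not described as stranded, so these reads cannot be told apart.

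Of the mitochondrial transporters of subfamily B that were not called, ABCB8 had a log2 fold change of -0.05 (limma adjusted p = 0.709), and ABCB10, which takes part in haem synthesis, -0.04 (limma adjusted p = 0.766). Of 18 tested genes of mitochondrial iron-sulfur and haem synthesis, 6 rose, beside 12.0% of all genes tested. Among the 6 were NFS1, GLRX5, CIAPIN1, UROD and SLC25A38, up by 0.29 to 0.43 on the log2 scale. The only gene of the list called lower was SLC25A28, a mitochondrial iron importer, by 0.27, beside 11.2% of all genes. UROD, a haem synthesis enzyme, averaged 1744 ± 147 normalized reads in shSRC1 and 1307 ± 203 in shNT (SD, n = 4 each).

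Of subfamily D, ABCD3, a peroxisomal importer of fatty acyl groups, had a log2 fold change of 0.15 (limma adjusted p = 0.301). With the correction for GC content and length it was 0.30 and was called (limma adjusted p = 0.0036). ABCD4, which takes part in the release of vitamin B12 from lysosomes, had 2249, 2227, 2257 and 2289 normalized reads in shSRC1, against 2002, 1898, 1964 and 1988 in shNT. The groups did not overlap, and the log2 fold change of 0.20 missed the threshold with a limma adjusted p of 0.0580. It was called without shNT replicate 3 (limma adjusted p = 0.0407), at a minimum of 50 (0.0462) and with DESeq2 (adjusted p = 0.0273). ABCD2, also a peroxisomal importer, was under the minimum with 2 reads in shSRC1 and 1 in shNT. Of 14 tested peroxisomal partners of the D proteins, 5 rose (PEX19, PEX5, ACAA1, SLC27A2 and ACOT8, by 0.27 to 0.35 on the log2 scale). CROT and EHHADH fell, by 0.58 and 0.33. At the same threshold 12.0% of all genes tested rose and 11.2% fell.

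Subfamily A had 1 member that fell and 1 that rose among 9, near the 11.2% and 12.0% of all genes tested. ABCA7, a phospholipid transporter and a known risk gene of Alzheimer disease, had 796, 674, 676 and 647 normalized reads in shSRC1, against 1101, 837, 1054 and 828 in shNT. Replicates 1 and 3 of shNT were high, and replicates 2 and 4 lay closer to the shSRC1 libraries without overlap. The log2 fold change was -0.44 ± 0.11 (SE), with a limma adjusted p of 0.0125. ABCA12, the ceramide transporter of keratinocyte lamellar granules, had 532, 588, 617 and 691 in shSRC1, against 429, 463, 494 and 501 in shNT.

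The lowest ABCA12 value of shSRC1, replicate 1, was just above the highest of shNT, replicate 4. On the log2 scale it rose by 0.36 ± 0.11 (SE), with a limma adjusted p of 0.0251. The call was lost without shNT replicate 1 (limma adjusted p = 0.0786), without shSRC1 replicate 3 (0.0621) or 4 (0.0796), and with no filter on low values (0.0596).

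ABCA3, known for lamellar bodies of the lung, averaged 21625 ± 2259 normalized reads in shSRC1 and 20879 ± 1527 in shNT (SD, n = 4 each), with a log2 fold change of 0.05 and a limma adjusted p of 0.737. ABCA2, a lysosomal lipid transporter, had -0.20 (limma adjusted p = 0.161), or 0.0421 with the correction for GC content and length. The remaining A genes ABCA5, ABCA10, ABCA4 and ABCA13 were at -0.22, -0.27, 0.34 and 0.62 on the log2 fold change scale, none called, and their limma adjusted p lay between 0.104 and 0.740. ABCA1, the exporter that loads cholesterol onto apolipoprotein A-I, was close to the minimum, at 13.6 ± 3.93 in shSRC1 and 13.2 ± 3.52 in shNT (SD, n = 4 each). The 95% interval of its log2 fold change was -0.73 to 0.80, so a change within it was not excluded. ABCG1, which passes cholesterol to HDL, averaged 3646 ± 311 in shSRC1 and 4198 ± 365 in shNT, with a log2 fold change of -0.20 and a limma adjusted p of 0.115. It was called lower without shNT replicate 3 (limma adjusted p = 0.0196) and with the correction for GC content and length (0.0133).

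ABCA1 and ABCG1 are textbook targets of the oxysterol receptors LXR. Of 9 other LXR targets tested, SREBF1 rose by 0.51 on the log2 scale, to 18998 ± 2281 normalized reads in shSRC1, against 13281 ± 842 in shNT (limma adjusted p = 0.0018). PLTP, the phospholipid transfer protein, fell to 5.35 ± 4.81 in shSRC1, against 20.1 ± 8.26 in shNT, where few reads stand behind each value. Of 16 tested nuclear receptors and other factors known to regulate ABC genes, NFE2L2, the gene of NRF2, was the only one called. NFE2L2 was lower in shSRC1, at 4447 ± 546 against 5511 ± 357 in shNT (SD, n = 4 each). Its log2 fold change was -0.32, with a limma adjusted p of 0.0272. Of all genes tested, 23.2% were called.

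The products that the C pumps export are made in part by glutathione conjugation. Of 15 tested genes of glutathione conjugation and supply, GSTM3, GSTZ1 and GSS rose, by 1.00, 0.62 and 0.35 on the log2 scale. GCLC and GCLM, the subunits of the enzyme that limits glutathione synthesis, fell by 0.41 and 0.27. Of 9 tested uptake transporters SLCO2A1 rose by 0.32 and SLCO3A1 fell by 0.26. Beside both lists, 12.0% of all genes tested were called higher and 11.2% lower.

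ABCE1 and the F genes act in translation. ABCF1, which binds eIF2 and ribosomes, had 15507, 14341, 14273 and 14512 normalized reads in shSRC1, against 12222, 11692, 10533 and 11534 in shNT. All shSRC1 libraries were above all shNT libraries. The log2 fold change was 0.35 ± 0.08 (SE, 95% interval 0.18 to 0.52), with a limma adjusted p of 0.00600. ABCF2 had 9138, 8197, 8406 and 8500 in shSRC1, against 7874, 7808, 6437 and 7736 in shNT, and here too the groups did not overlap, though replicate 3 of shNT was far below the rest. Its log2 fold change of 0.20 was not called (limma adjusted p = 0.100). As for ABCB6, another gene with no row in the table lies on the same strand over 45.8% of its exon bases.

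ABCF3 had a log2 fold change of 0.05 (limma adjusted p = 0.706). ABCE1, the factor that splits ribosomes after termination, averaged 8230 ± 994 normalized reads in shSRC1 and 9600 ± 682 in shNT (SD, n = 4 each), with a log2 fold change of -0.23 and a limma adjusted p of 0.0966. Of 16 tested partners of ABCE1 and the F proteins in translation and ribosome rescue, only LTN1, a ubiquitin ligase of stalled ribosomes, was called. LTN1 fell by 0.43 on the log2 scale (limma adjusted p = 0.0148). Of all genes tested, 11.2% were called lower and 12.0% higher.

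**Figure D3:**
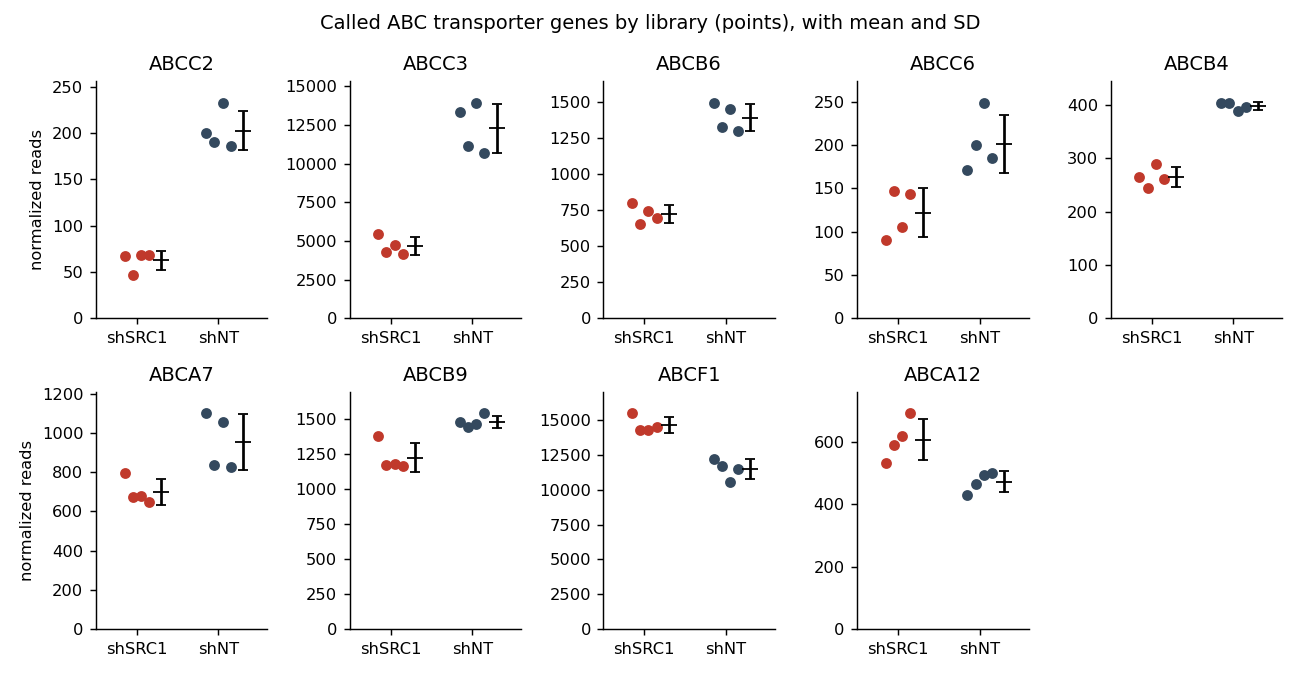
Normalized reads of 9 called ABC transporter genes in each library as points, shSRC1 left of shNT in each panel, with the group mean and SD (n = 4 each). In every panel the groups do not overlap; the mean is lower in shSRC1 in 7 panels and higher in those of ABCF1 and ABCA12.

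Levels of different genes can be compared only per length, and the order was led by the translation factor ABCF1 in both groups. Per kilobase of transcript it had 4211 normalized reads in shSRC1 and 3302 in shNT, followed by ABCA3 with 3272 and 3159 and by ABCC5 with 2606 and 2583. ABCC3 was the tenth in the order of the 34 genes in shSRC1, at 815 ± 101 per kilobase, and the fifth in shNT, at 2149 ± 279 (SD, n = 4 each). ABCC2 was low in both, at 10.8 in shSRC1 and 34.9 in shNT, and ABCA1 was the last of the 34 in both, at 1.29 and 1.26.

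By subfamily, the share of C in the summed level per kilobase was 22.8 ± 0.56% in shSRC1 and 28.0 ± 2.46% in shNT, with ranges of 22.3 to 23.3% and 26.2 to 31.4%. The share of F was 32.1 ± 0.48% in shSRC1 and 25.6 ± 2.13% in shNT, with ranges of 31.4 to 32.4% and 22.5 to 27.2%. That of B was 6.12 ± 0.20% in shSRC1 and 6.92 ± 0.19% in shNT, and that of A 19.7 ± 1.13% and 19.2 ± 1.02% (SD, n = 4 each throughout). Shares are bound to sum to the whole, so they say nothing about a single gene's change. The summed level itself was 25803 ± 1269 per kilobase in shSRC1 and 27332 ± 897 in shNT.

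**Figure D4:**
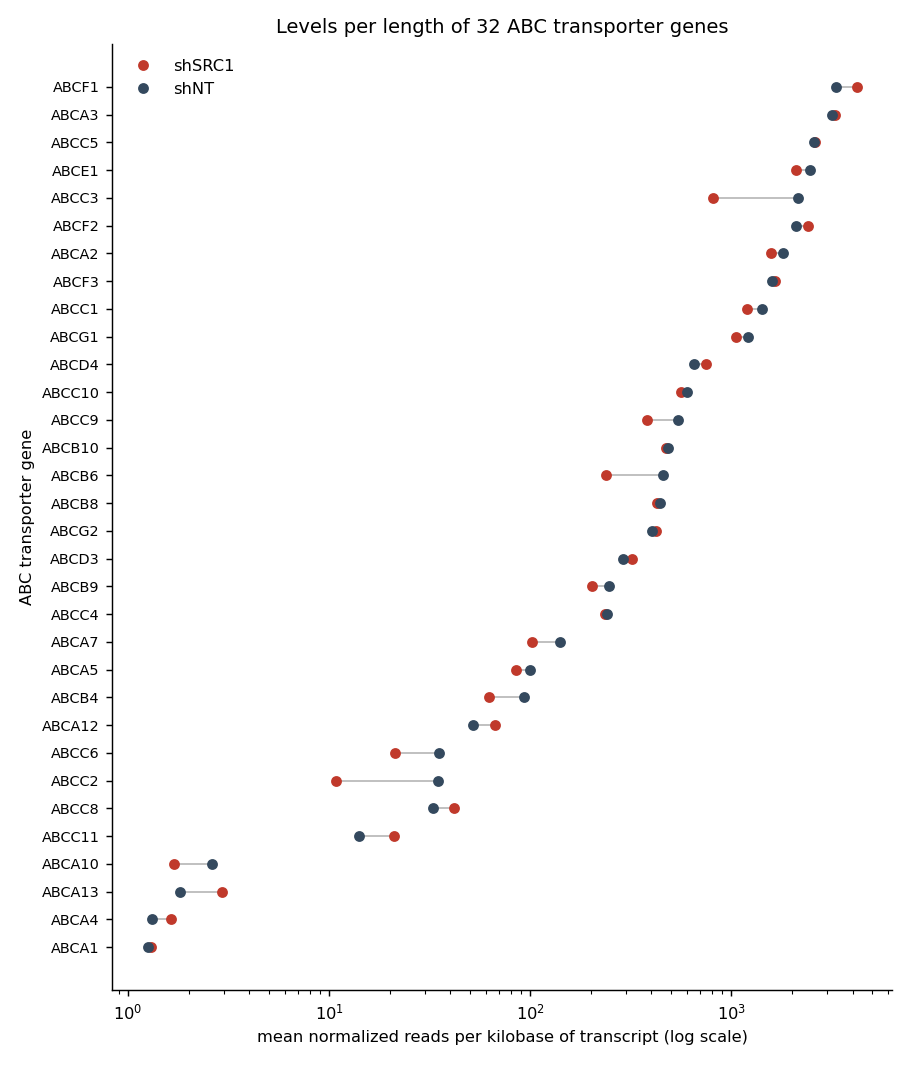
Mean normalized reads per kilobase of transcript of 32 tested ABC transporter genes on a log scale, one row per gene, with shSRC1 and shNT as points of different colour. The points nearly coincide for most genes; ABCC3 (815 in shSRC1, 2149 in shNT) and ABCC2 (10.8 and 34.9) are the pairs farthest apart.

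Neighbouring genes can share a change, so called members were set beside the 10 tested protein-coding genes on either side of each. For ABCC2 on chromosome 10 the median log2 fold change of the 20 neighbours was -0.12, for ABCC3 on chromosome 17 it was 0.05, and for ABCB6 on chromosome 2 it was -0.02. These 3 members lay below the median of their neighbours, but the lowest of the 20 neighbours fell about as far. The log2 fold change was -1.70 for TMEM92, at position 10 from ABCC3, and -1.49 for SEC31B, at position 8 from ABCC2. It was -0.98 and -0.93 for TUBA4A and SLC23A3, at positions 5 and 4 from ABCB6, and all 4 were called. Neighbours called lower and higher were 6 and 0 for ABCC2, 3 and 1 for ABCC3, and 3 and 2 for ABCB6. For ABCF1 on chromosome 6 the neighbours' median was 0.34, close to the gene's own 0.35, with 13 of 20 neighbours called higher and none lower.

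For ABCB4 on chromosome 7 the neighbours' median was -0.33, with 9 of 20 called lower and 2 higher. The next tested protein-coding gene on one side is CROT, the peroxisomal carnitine octanoyltransferase. Its log2 fold change was -0.58 (limma adjusted p = 0.000511), beside -0.59 for ABCB4. The next on the other side is RUNDC3B, which rose by 0.55 (limma adjusted p = 0.0343). For ABCB9 on chromosome 12, 18 of 20 neighbours had a change below 0, with a median of -0.19, against the gene's own -0.28. The neighbours' median was 0.12 for ABCA7, -0.03 for ABCC6 and 0.03 for ABCA12. Those genes themselves were at -0.44, -0.74 and 0.36. Whether these changes share a cause was not tested.

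**Figure D5:**
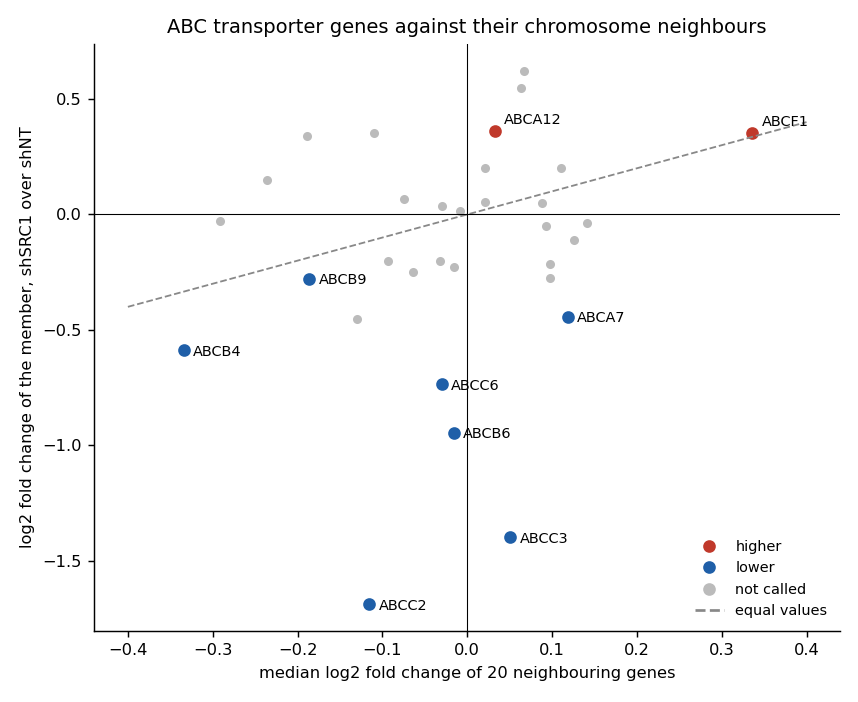
Log2 fold change of 32 tested ABC transporter genes, shSRC1 over shNT, against the median of the 20 neighbouring tested protein-coding genes of each. The dashed line marks equal values. ABCF1 (0.35 against 0.34) lies near the line, and ABCC2 (-1.69 against -0.12) and ABCC3 (-1.40 against 0.05) lie far below it.

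The GC content of genes moved with some libraries. Across genes, the rank correlation of a library's deviation with GC content was between -0.224 and 0.481 in the shSRC1 libraries, the highest in replicate 1, and between -0.219 and 0.18 in the shNT libraries. Of 31 members above 50 reads, shSRC1 replicate 1 was the highest of its group for 16. With a correction for GC content and length, all 10 called members stayed called and 14 were called in all. The same correction called 5720 of all 19559 genes, against 4538 without it.

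The other 12 ABC genes lay below the minimum. ABCB5 and ABCC13 had no read in any library, for which a count of 0 allows up to 3 reads per library, or 2.73 to 5.25 normalized reads in shSRC1 and 2.67 to 2.79 in shNT; this floor covers counting error only. Reads summed over the 4 libraries were 22 in shSRC1 and 39 in shNT for ABCC12, and 33 and 37 for ABCG4. They were 18 and 18 for ABCA9, 17 and 17 for ABCA6, and 5 and 10 for ABCA8. The bile salt exporter ABCB11 had 3 and 0, and of the sterol half-transporters ABCG5 had 2 and 2, and ABCG8 had 2 and 0. Outside the symbol rule, the antigen peptide transporters TAP1 and TAP2 had log2 fold changes of -0.12 (limma adjusted p = 0.385) and -0.15 (limma adjusted p = 0.216), and CFTR was under the minimum.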

How the data were processed

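Poly(A)-selected RNA of 8 libraries, 4 shSRC1 and 4 shNT, was sequenced from kit libraries that the labels do not describe as stranded. The authors deposited, per gene, a signal equal to reads divided by a size factor per library. The build was GRCh37 and the tools included HTSeq 0.6.1 and TopHat2 2.0.12 beside DESeq and DESeq2, per the submitters' processing notes. How reads were assigned to genes, and with which annotation, is not given in the sources used here, and reads shared by near-identical or overlapping genes may be lost or split. All deposited values were whole multiples of a fixed step per library, within 0.001 reads, from which depth was recovered. Groups and replicate numbers come from the labels.

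A gene needed 10 or more normalized reads in 4 or more libraries and was then tested with limma 3.58.1 (trend, robust) in R 4.3.3 on log2(value + 1), which understates changes of low genes. P-values were two-sided and Benjamini-Hochberg adjusted over all genes tested; the threshold was 0.05, and replicate numbers did not enter the fit. Alternatives were TMM and upper-quartile scaling with edgeR 4.0.16, a replicate block, pseudocounts of 0.5 and 5, no filter or a minimum of 50, leaving out each library in turn, a GC and length correction, and edgeR and DESeq2 1.42.0 on the recovered read counts. Leaving out shNT replicate 3 and shSRC1 replicate 2 together was added after seeing the data.

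Members and gene lists were chosen with earlier results of these data known. Named by rule were all members past the threshold, the best known drug, sterol, peroxisomal, mitochondrial and translation members whatever their values, TAP1, TAP2 and CFTR, NCOA1, and members of the partner lists past the threshold. Some genes that these rules take, 2 tested members among them, are not reported here individually and are not plotted, but stay in the counts over members and lists. Others were named after their values were seen. Levels per kilobase use the longest transcript of GENCODE 29 on GRCh38, which is not the authors' build, and the same annotation gave gene order and exon overlaps. One listed LXR target was not matched.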

Additional observations from a re-analysis of the deposited data

Results flagged for a closer look

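In 7 of 64 groups of 4 libraries, 32 members in both groups, 1 library stood far from the other 3, by a gap above Dixon's critical value. Chance gives about 1 in 20. In the shSRC1 group, ABCB9 had 1380 normalized reads in replicate 1, against 1163 to 1180 in the others, and ABCC2 had 47.2 in replicate 2, against 67.4 to 68.2. In the shNT group, replicate 3 stood apart for 4 members. It had 1072 for ABCA5 (others 716 to 754), 6437 for ABCF2 (7736 to 7874), 3915 for ABCF3 (4669 to 4793) and 3654 for ABCG1 (4333 to 4435). Replicate 1 of shNT stood apart for ABCD3, with 1111 against 1285 to 1318.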

How the results depend on the processing

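Of 604 values of the 32 members plotted under the 19 alternatives, 556 kept their direction and their side of the threshold, 11 of 2 members lost it (ABCB9 and ABCA12), 20 of 9 members gained it and 17 of 7 members changed sign, none of them a called member. The number of members called was 10, and 16 (4 higher) with a replicate block, which also kept the 10. With no filter 1 member was higher, beside 5.13% of the 38332 genes tested there. Leaving out 1 library gave 8 to 13 called, with 1 to 4 higher and 7 to 9 lower. Over all genes the same settings called 3166 to 4815, with 8.63 to 12.9% higher and 7.43 to 11.7% lower. Leaving out shNT replicate 3 and shSRC1 replicate 2 together gave 10, 9 of them the same genes. The cause of these moves was not tested.

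The labels do not say what a replicate number shares, and the numbers were not taken as pairs because replicate 2 missed a correlation of deviations of 0.1. Same-numbered libraries had 0.242, -0.010, 0.128 and 0.144. Replicates 1, 3 and 4 of both groups correlated best with their own number, a hint of pairing from the data and not from the design, while shNT replicate 2 correlated best with shSRC1 replicate 4, at 0.130. The block called 6398 of all genes, against 4538 without it. With the block ABCC1, ABCG1, ABCA2, ABCD4, ABCE1 and ABCF2 were called, at adjusted p of 0.0183, 0.0323, 0.0380, 0.0302, 0.0224 and 0.0462.

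Of the members that changed sign, ABCA10 and ABCA5 had log2 fold changes of -0.27 and -0.22 at the settings used throughout, and the others lay closer to 0. With 1 library left out, ABCA1 ranged from -0.15 to 0.18, ABCA10 from -0.90 to 0.11, ABCA3 from -0.021 to 0.095, ABCC4 from -0.059 to 0.0017, ABCC5 from -0.027 to 0.057 and ABCF3 from -0.016 to 0.082. With both libraries left out, ABCA10 was at 0.28 and ABCF3 at -0.0067. With the GC and length correction ABCA5 was at 0.0041, ABCC5 at -0.0255 and ABCF3 at -0.0014, and with upper-quartile scaling ABCC5 was at -0.0010. TMM and upper-quartile scaling moved the median of all genes from -0.0025 to -0.0135 and -0.0166.

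Depth limits the members near the minimum, above all ABCA1, ABCA4 and ABCA10. Puromycin, steroid depletion and tamoxifen were common to all libraries, so no value bears on them.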
